A study of Mus musculus with 36 samples.

Results

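The 9 genes described here encode subunits, oxygen sensors and target genes of the hypoxia-inducible factors (HIFs): *Hif1a*, *Epas1*, *Egln1*, *Egln3*, *Vegfa*, *Adm*, *Bnip3*, *Kdm3a* and *Ankrd37*. They were taken by gene name from a count table of 55416 genes, and each name matched 1 row. Of the 9, 8 were among the 13995 genes with 1 RPM (a gene's reads scaled to a common library total) or more in 12 or more of the 36 libraries and were tested. *Ankrd37* reached that level in 7 libraries and was not tested. *Epas1* reached 1 RPM in all 12 EPS 3h libraries and in 12 of the others, and *Adm* in 8 of the EPS 3h libraries and 20 of the others. The RNA came from C2C12 cells, a mouse myoblast line that fuses into multinucleate myotubes in low-serum medium. Every culture received an antisense locked nucleic acid (LNA) that either targets the long non-coding RNA *Tug1* (called *Tug1* KD) or has no target and serves as negative control (called control myotubes). Myotubes were then left unstimulated with unconnected electrodes in the medium (Rest), or underwent 3 h of electrical pulse stimulation (EPS), an in vitro stand-in for contraction. Stimulated myotubes were harvested at once (EPS 0h) or 3 h later (EPS 3h). This gave 6 groups of 6 libraries, named below by condition and LNA, and all of them share 1 cell line in culture, without blood vessels or other tissue. The wells came from 2 independent experiments with 3 wells per group in each, so p values measure the spread between wells of few experiments.

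HIFs are transcription factors made of an oxygen-regulated alpha subunit (HIF-1α from *Hif1a*, HIF-2α from *Epas1*) and a stable partner, ARNT. With oxygen present, prolyl hydroxylases (PHD2 from *Egln1*, PHD3 from *Egln3*) mark the alpha subunits for capture by the VHL ubiquitin ligase and degradation. HIF activity is thus controlled largely at the protein level, which RNA counts do not measure. When the subunits are stable they bind short DNA motifs, the hypoxia response elements, and raise genes of angiogenesis, glucose use, mitophagy and chromatin demethylation. *Egln3* and *Ankrd37* are themselves widely used reporters of HIF activity.

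Each library held 17005079 to 24181167 counts on genes. A count of 3 corresponded to 0.127 to 0.183 RPM. The targeted *Tug1* was reduced by its LNA in all 3 conditions (log2FC -0.83 at Rest, -0.57 at EPS 0h and -0.51 at EPS 3h, FDR = 0.000915, 0.0178 and 0.0414), with no overlap between the groups at Rest. In set A alone the reduction passed at Rest (-0.94, FDR = 0.0236) and not at EPS 0h (-0.49, FDR = 0.266) or EPS 3h (-0.50, FDR = 0.227), and in set B it passed in all 3 conditions. The 9 myotube markers examined, such as *Myog*, *Acta1* and *Myh3*, were present in every library and summed to 15045 RPM or more, against 107 to 191 RPM for 5 markers of proliferating myoblasts. The latter sum was 154 to 191 RPM in control and 140.2 to 184 RPM in *Tug1* KD libraries at EPS 0h, against 114 to 155 and 107 to 136 RPM at Rest, and its means at EPS 3h were 139 and 133 RPM. Its part in the EPS 0h results below was not tested. Within the Rest and EPS 0h groups the libraries parted into replicates 1 to 3 (set A below) and replicates 4 to 6 (set B). Each set was also fitted alone. Its log2FC is given beside the pooled value of each member's called comparisons with Rest and of *Egln3* under *Tug1* KD. The same numbers form the sets at EPS 3h, but there replicate 3 lay apart from replicates 1 and 2 over all genes tested. On the second principal component (11.1% of the variance), control replicate 3 lay at -30.7, near replicates 4 to 6 (-32.6 to -29.3). Control replicates 1 and 2 lay at 9.31 and 9.15. *Tug1* KD replicate 3 lay at -4.64, against 22.6 and 27.9. Set A at EPS 3h thus joins unlike libraries. In EPS 3h, replicate 3 of both LNAs lay apart from replicates 1 and 2 for *Hif1a*, *Bnip3* and *Kdm3a*, and their EPS 3h values are given with and without it.

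Compared per length of exon in Rest control myotubes (RPM per kilobase, RPKM), the order of the levels was *Vegfa* (65.6 ± 7.70 RPKM, SD, n = 6), *Egln3* (29.5 ± 0.807), *Hif1a* (11.9 ± 1.05), *Egln1* (5.96 ± 0.934), *Kdm3a* (5.75 ± 0.652), *Bnip3* (3.58 ± 0.497), *Adm* (1.38 ± 0.418), *Ankrd37* (0.479 ± 0.163) and *Epas1* (0.128 ± 0.0857). Each gene's 6 libraries lay clear of its neighbours' in this order except those of *Egln1* and *Kdm3a*, which overlapped. Resting myotubes thus held *Hif1a* mRNA at a level far above that of *Epas1* per length, with more *Egln3* than *Egln1*.

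The core of the hypoxia response element is written ACGTG or GCGTG, and it was sought on both strands of the 300 bases before the start of each gene's Ensembl canonical transcript in GRCm39. At least 1 core was found for 7 of the 9 genes (all but *Vegfa* and *Kdm3a*), against 57% of 12573 promoters of tested protein-coding genes, and ACGTG alone for 5 of 9 against 24.2%. The 5 genes shown span the range from several cores to none and from the largest change after EPS to no call. Their windows follow, each cut to its longest stretch without annotated exon bases. They run 5′ to 3′ on the strand of the gene, with each core in capitals (CACGTG holds ACGTG on both strands, and CACGC is GCGTG on the opposite strand).
*Hif1a*, chr12:73954270-73954569, plus strand: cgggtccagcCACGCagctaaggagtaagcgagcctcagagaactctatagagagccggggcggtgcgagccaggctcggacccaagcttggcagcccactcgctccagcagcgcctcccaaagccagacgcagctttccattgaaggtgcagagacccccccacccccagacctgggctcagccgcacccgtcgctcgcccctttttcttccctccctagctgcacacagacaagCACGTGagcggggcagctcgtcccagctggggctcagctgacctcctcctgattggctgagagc
*Epas1*, chr17:87060913-87061086, plus strand: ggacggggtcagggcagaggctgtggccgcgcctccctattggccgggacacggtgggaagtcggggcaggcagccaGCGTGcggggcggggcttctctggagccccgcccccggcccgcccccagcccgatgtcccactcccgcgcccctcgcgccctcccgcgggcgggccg
*Egln3*, chr12:54250674-54250973, minus strand: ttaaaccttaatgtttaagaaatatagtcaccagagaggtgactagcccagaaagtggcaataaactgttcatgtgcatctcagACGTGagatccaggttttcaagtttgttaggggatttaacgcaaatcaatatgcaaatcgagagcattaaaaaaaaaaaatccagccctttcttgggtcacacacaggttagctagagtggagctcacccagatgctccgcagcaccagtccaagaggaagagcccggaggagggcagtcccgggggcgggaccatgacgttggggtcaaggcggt
*Vegfa*, chr17:46343310-46343609, minus strand: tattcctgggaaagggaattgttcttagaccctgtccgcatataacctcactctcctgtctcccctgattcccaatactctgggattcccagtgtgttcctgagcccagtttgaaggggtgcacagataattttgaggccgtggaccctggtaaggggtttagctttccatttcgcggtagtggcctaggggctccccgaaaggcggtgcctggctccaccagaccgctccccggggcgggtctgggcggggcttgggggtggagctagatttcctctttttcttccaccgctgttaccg
*Bnip3*, chr7:138511254-138511412, minus strand: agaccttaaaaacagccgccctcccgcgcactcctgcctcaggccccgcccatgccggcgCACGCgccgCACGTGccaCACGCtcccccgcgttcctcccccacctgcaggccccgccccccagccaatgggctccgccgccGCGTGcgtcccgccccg
 A match is only a run of letters, and elements that lie farther from the start, as the well-known one of *Vegfa* does, fall outside this window.

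Some of these genes differed between EPS and Rest while others stayed within the spread between wells. Those that differed did not all move the same way. No separate Rest group was given for EPS 3h, so there stimulation and the later harvest cannot be told apart. In control myotubes at EPS 0h, *Hif1a*, *Vegfa* and *Kdm3a* were higher and *Egln3* lower than at Rest (3 and 1 of 8 tested, at a false discovery rate (FDR) under 0.05 in edgeR's quasi-likelihood test with Benjamini-Hochberg adjustment). Of all genes tested, 20.5% were called higher and 18.4% lower. At EPS 3h, *Epas1*, *Hif1a* and *Kdm3a* were higher and *Egln3* lower (3 and 1 of 8), beside 26.1% higher and 25.9% lower over all genes. In *Tug1* KD myotubes the genes called higher were the same at each time (3 of 8 at both), with *Adm* the 1 called lower at EPS 0h and *Egln3* the 1 called lower at EPS 3h. There, 24.4% of all genes tested were called higher and 21.2% lower at EPS 0h, then 26.2% and 25.9% at EPS 3h. The median log2 fold change (log2FC) of the 8 genes in control myotubes was 0.21 at EPS 0h and 0.11 at EPS 3h, beside -0.025 and -0.023 over all genes. All comparisons with Rest of 1 LNA share the same 6 Rest libraries. The share called higher, 37.5%, stood for only 3 genes beside those backgrounds, so the count is no result about the genes as a group. Scaling by library size alone moved the all-gene median at EPS 3h from -0.023 to -0.19 in control and from -0.041 to -0.20 in *Tug1* KD myotubes.

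**Figure D1:**
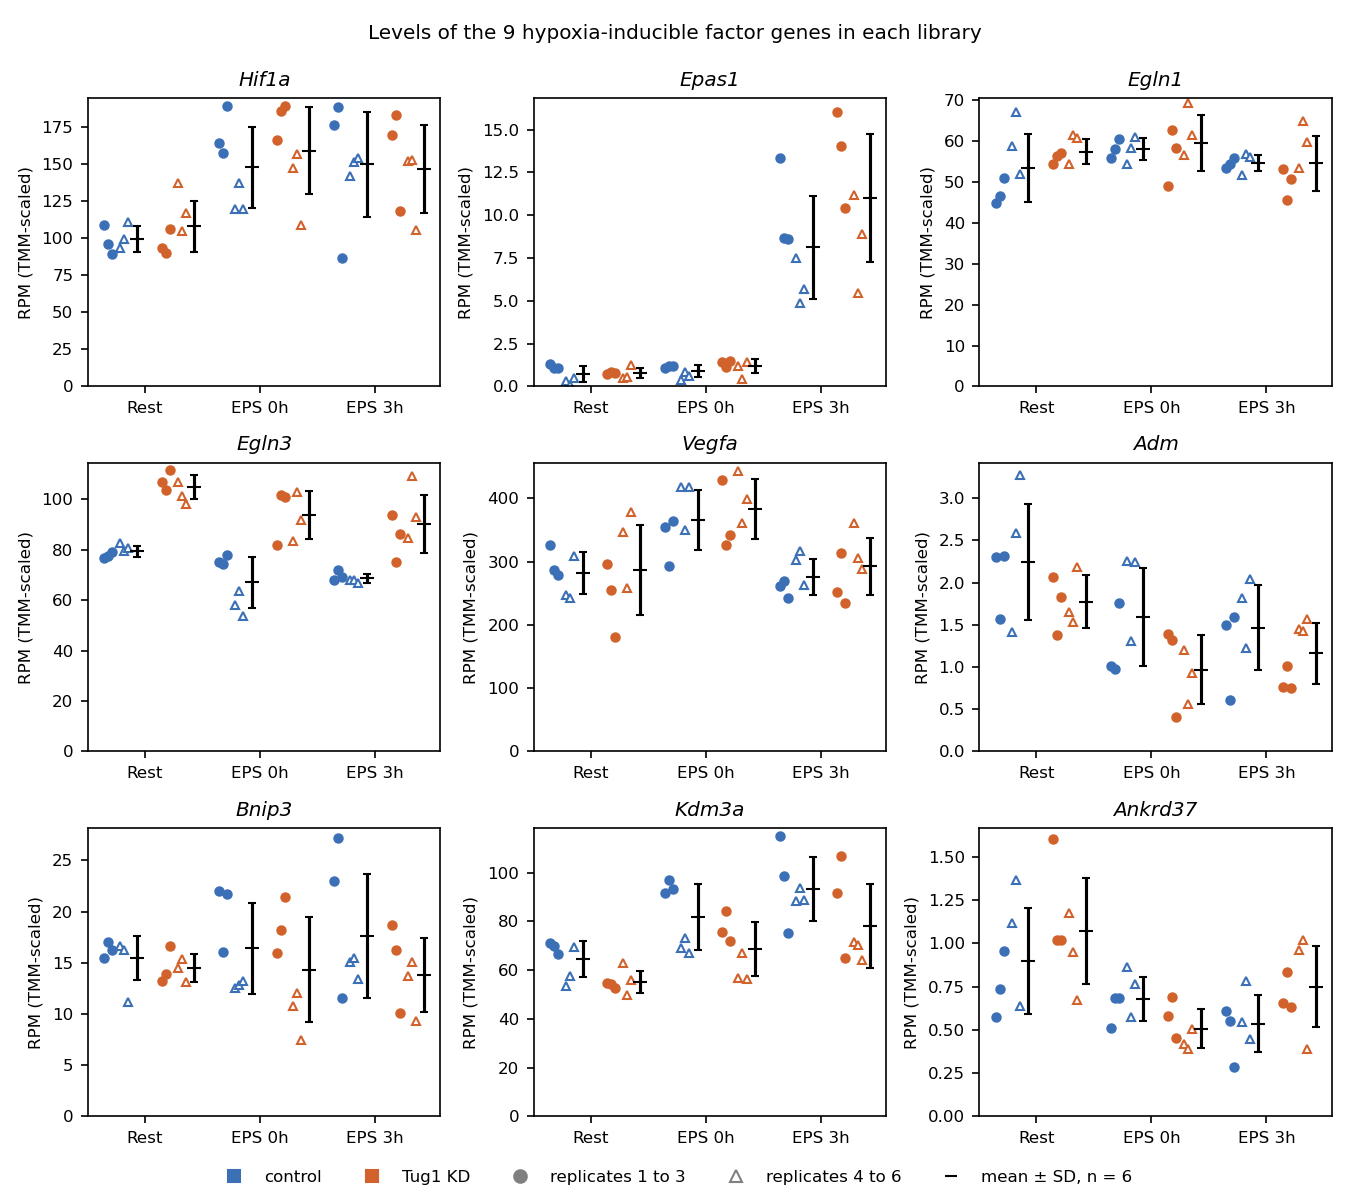
Level of each of the 9 genes in every library (RPM scaled by TMM factors, linear axes from 0), by condition, with control myotubes in blue and *Tug1* KD in orange, replicates 1 to 3 as filled circles and 4 to 6 as open triangles, and the mean ± SD of 6 libraries in black. *Epas1* lay at 1.51 RPM or below in all Rest and EPS 0h libraries and at 4.90 RPM or above in all EPS 3h libraries, and *Egln3* was higher in *Tug1* KD than in control myotubes in each condition.

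*Hif1a* (ENSMUSG00000021109, chr12:73948149-73996321, plus strand) encodes the HIF-1α subunit (gene positions here are those of GRCm39). In RNA of whole wells, fewer cells of a type and less RNA per cell cannot be told apart. At Rest its level in control myotubes was 89.0 to 111 RPM (median 97.6), at EPS 0h 119.8 to 189 RPM (median 147) and at EPS 3h 86.9 to 188 RPM (median 153). The EPS 0h group did not overlap the Rest group. At EPS 3h 5 of 6 libraries exceeded all those at Rest, while replicate 3 (86.9 RPM) lay below them all. The mean rose from 99.6 ± 8.75 RPM to 148 ± 27.3 RPM at EPS 0h (log2FC 0.57, SE 0.15, FDR = 0.00293) and stood at 149.8 ± 35.3 RPM at EPS 3h (log2FC 0.59, SE 0.15, FDR = 0.00138, SD and n = 6 throughout). Without replicate 3 the EPS 3h change was 0.71 (FDR = 6.74e-05). The fold change was 1.49 at EPS 0h and 1.505 at EPS 3h, and EPS 3h and EPS 0h did not differ beyond their spread (log2FC 0.018, 95% interval -0.28 to 0.31).

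Under *Tug1* KD, *Hif1a* ranged over 89.7 to 137 RPM (median 106) at Rest, 109 to 189 RPM (median 161) at EPS 0h and 105 to 183 RPM (median 152) at EPS 3h. The groups overlapped. It was higher at EPS 0h (log2FC 0.56, SE 0.15, FDR = 0.00307) and at EPS 3h (log2FC 0.44, SE 0.15, FDR = 0.0143). The rise was larger in set A than in set B, a difference that was not tested. At EPS 0h it was 0.79 in set A and 0.31 in set B in control myotubes, and 0.92 in set A and 0.20 in set B in *Tug1* KD myotubes. Set B alone did not pass the test in either (FDR = 0.116 and 0.330). At EPS 3h the control value was 0.64 in set A and 0.56 in set B, and the *Tug1* KD value 0.72 in set A and 0.19 in set B (FDR = 0.301). Without replicate 3 of EPS 3h the *Tug1* KD value was 0.50 (FDR = 0.00844). With scaling by library size alone the *Tug1* KD rise at EPS 3h was 0.28 and no longer passed (FDR = 0.113). Nor did it pass without a low-count filter (0.29, FDR = 0.0865).

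*Epas1* (ENSMUSG00000024140, chr17:87061087-87140838, plus strand) encodes HIF-2α, a subunit best known from endothelial cells and also linked to slow muscle fibres. It was barely detected before EPS 3h and then rose in every library. In control myotubes it lay at 0.0941 to 1.31 RPM (median 0.762) at Rest, from 2 to 25 counts, and at 0.346 to 1.22 RPM (median 0.956) at EPS 0h. At EPS 3h it lay at 4.90 to 13.3 RPM (median 8.04), from 100 to 241 counts. Under *Tug1* KD it lay, in the same order, at 0.470 to 1.25 RPM (median 0.765), 0.432 to 1.51 RPM (median 1.32) and 5.47 to 16.0 RPM (median 10.8). No EPS 3h library overlapped any library of Rest or EPS 0h. The change from Rest to EPS 3h was 11.3-fold in control myotubes (log2FC 3.50, SE 0.36, FDR = 3.51e-10), the largest among the 8 genes. It was 14.0-fold under *Tug1* KD (log2FC 3.81, SE 0.36, FDR = 3.64e-11). It held within both sets, at 3.17 in set A and 4.27 in set B in control and 4.09 in set A and 3.47 in set B in *Tug1* KD myotubes. At EPS 0h the change was not detectable at this depth (log2FC 0.29, 95% interval -0.49 to 1.08 in control, and 0.61, -0.14 to 1.36 in *Tug1* KD), although set A of *Tug1* KD alone passed (0.79, FDR = 0.0232). Most of the rise came between EPS 0h and EPS 3h (log2FC 3.21, SE 0.35, FDR = 2.26e-08 in control and log2FC 3.20, SE 0.34, FDR = 1.01e-08 in *Tug1* KD). At EPS 3h stimulation and the later harvest cannot be told apart for *Epas1* either. Even at EPS 3h its level per length, 1.44 ± 0.528 RPKM in control myotubes, stayed under that of *Hif1a* in the same libraries, 18.0 ± 4.23 RPKM (SD, n = 6). Markers of endothelial cells were low, with larger sums at each later time: *Pecam1*, *Cdh5* and *Tek* together gave 1.36 to 2.42 RPM in Rest control libraries, 3.07 to 4.18 RPM at EPS 0h and 4.46 to 7.58 RPM at EPS 3h, with *Pecam1* at 0 in 1 of 36 libraries. The 2 adipocyte markers together gave at most 0.209 RPM in Rest control libraries, 0.292 to 1.30 RPM at EPS 0h and 0.539 to 1.53 RPM at EPS 3h, with *Plin1* at 0 in 27 libraries. The 2 macrophage markers reached at most 0.244 RPM in control libraries of Rest and EPS 0h and 1.22 RPM at EPS 3h. The part of any of these in the result was not tested.

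The oxygen sensors did not follow the alpha subunits. *Egln1* (ENSMUSG00000031987, chr8:125635308-125676865, minus strand), whose product PHD2 is the main hydroxylase of HIF-1α under normal oxygen, stayed between 44.8 and 69.3 RPM over all 36 libraries. Its control means were 53.4 ± 8.37 RPM at Rest, 58.1 ± 2.62 RPM at EPS 0h and 54.7 ± 1.90 RPM at EPS 3h (SD, n = 6), and the groups overlapped. No comparison of *Egln1* passed the test. The 95% interval of the change was -0.049 to 0.29 at EPS 0h and -0.13 to 0.20 at EPS 3h in control myotubes on the log2 scale. In set A alone the EPS 0h change in control myotubes passed (log2FC 0.29, FDR = 0.0205), and in set B it was -0.036. With scaling by library size alone the EPS 3h change in *Tug1* KD myotubes passed (-0.24, FDR = 0.0137), against -0.073 with TMM.

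*Egln3* (ENSMUSG00000035105, chr12:54225767-54250673, minus strand), whose product PHD3 belongs to the same family and is usually raised by HIFs, was lower after EPS. In control myotubes it ranged over 76.6 to 82.6 RPM (median 79.3) at Rest, 53.6 to 77.8 RPM (median 69.0) at EPS 0h and 66.9 to 71.9 RPM (median 68.1) at EPS 3h. All 6 EPS 3h libraries lay below every Rest library, and 5 of 6 EPS 0h libraries did. The differences were small next to that of *Epas1*, with log2FC -0.24, SE 0.084, FDR = 0.0202 at EPS 0h and log2FC -0.21, SE 0.084, FDR = 0.0364 at EPS 3h. By set the EPS 0h value was -0.042 in set A (FDR = 0.746) and -0.47 in set B, and without a low-count filter its call was lost (FDR = 0.0631). The EPS 3h value was -0.14 in set A (FDR = 0.238) and -0.26 in set B, and its call was lost without Rest control replicate 6 (log2FC -0.20, FDR = 0.0567). In *Tug1* KD myotubes the Rest mean of *Egln3*, 105 ± 4.76 RPM, fell to 90.3 ± 11.5 RPM at EPS 3h (log2FC -0.21, SE 0.084, FDR = 0.0310), a call lost without replicate 3 of EPS 3h (FDR = 0.0571). By set that value was -0.32 in set A and -0.094 in set B (FDR = 0.475). The EPS 0h difference did not pass (log2FC -0.16, FDR = 0.118), though it did with scaling by library size alone (FDR = 0.0117). Both EPS 3h calls were also lost when only the groups compared were fitted (FDR = 0.0590 in control and 0.114 in *Tug1* KD myotubes).

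*Vegfa* (ENSMUSG00000023951, chr17:46327919-46343309, minus strand), the secreted growth factor that drives capillary growth in exercised muscle, rose at EPS 0h and was back near its Rest level at EPS 3h. In control myotubes it ranged over 242 to 326 RPM (median 283) at Rest, 294 to 419 RPM (median 359) at EPS 0h and 242 to 316 RPM (median 266) at EPS 3h, and 5 of 6 values at EPS 0h exceeded all Rest values. Under *Tug1* KD the ranges were 180.3 to 379 RPM (median 277), 327 to 443 RPM (median 380.5) and 234 to 361 RPM (median 297), and 3 of 6 values at EPS 0h exceeded all Rest values. The rise at EPS 0h was 1.30-fold in control (log2FC 0.38, SE 0.13, FDR = 0.0182). It was 1.34-fold in *Tug1* KD myotubes (log2FC 0.42, SE 0.13, FDR = 0.00731). By set it was 0.18 in set A (FDR = 0.392) and 0.57 in set B in control myotubes. In *Tug1* KD myotubes it was 0.60 in set A and 0.29 in set B (FDR = 0.131), so in each LNA 1 set alone did not pass. Scaling by library size alone ended the control call (log2FC 0.30, FDR = 0.0660). At EPS 3h the difference from Rest was -0.033 (95% interval -0.28 to 0.22) in control and 0.032 (-0.22 to 0.28) in *Tug1* KD myotubes. Between EPS 0h and EPS 3h *Vegfa* fell in both (log2FC -0.41, FDR = 0.0227, and -0.39, FDR = 0.0317). By set this was -0.37 in set A (FDR = 0.138) and -0.43 in set B (FDR = 0.0487) in control myotubes, and -0.45 (FDR = 0.0912) and -0.33 (FDR = 0.131) in *Tug1* KD myotubes. These 2 calls were lost without replicate 3 of EPS 3h, with FDR = 0.0552 in control and 0.0983 in *Tug1* KD myotubes.

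*Vegfa* and *Epas1* were the only members called between EPS 3h and EPS 0h (1 lower and 1 higher of 8, in each LNA). Of all genes tested, 9.67% were called higher and 6.88% lower at EPS 3h than at EPS 0h in control myotubes, and 8.59% and 7.13% in *Tug1* KD myotubes.

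*Adm* (ENSMUSG00000030790, chr7:110226858-110229027, plus strand), which encodes the vasodilator peptide adrenomedullin, was near the limit of detection, with 8 to 77 counts per library, and its medians after EPS lay below those at Rest. It ranged over 1.42 to 3.27 RPM (median 2.31) at Rest, 0.979 to 2.25 RPM (median 1.53) at EPS 0h and 0.611 to 2.04 RPM (median 1.54) at EPS 3h in control myotubes. With *Tug1* KD it ranged over 1.38 to 2.19 RPM (median 1.74), 0.403 to 1.40 RPM (median 1.06) and 0.747 to 1.56 RPM (median 1.22), with 5 of 6 EPS 0h libraries below every Rest library. The fall passed the test at EPS 0h in *Tug1* KD myotubes (log2FC -0.89, SE 0.29, FDR = 0.0112, -0.76 in set A and -1.01 in set B). The other 3 differences from Rest were -0.49 (FDR = 0.152) at EPS 0h and -0.60 (FDR = 0.0598) at EPS 3h in control myotubes, and -0.61 (FDR = 0.0707) at EPS 3h in *Tug1* KD myotubes. With the replicate number as a block, which pairs the libraries of EPS 3h and Rest in control myotubes, the control value passed (-0.62, FDR = 0.0247). Both EPS 3h values lay near the threshold, and also passed with a block for the set (FDR = 0.0343 and 0.0407), a strict low-count filter (FDR = 0.0421 and 0.0472), no filter (FDR = 0.0464 and 0.0340) and library size alone (FDR = 0.0156 and 0.0199). *Adm* and *Vegfa* are both classed as secreted HIF targets, and at EPS 0h in *Tug1* KD myotubes both passed the test with opposite signs.

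*Bnip3* (ENSMUSG00000078566, chr7:138490690-138511253, minus strand), a mitophagy receptor of the outer mitochondrial membrane and a textbook HIF-1 target, did not pass the test in any comparison over all 6 replicates. Its level was 11.2 to 17.04 RPM (median 16.2) at Rest, 12.5 to 22.0 RPM (median 14.7) at EPS 0h and 11.6 to 27.2 RPM (median 15.3) at EPS 3h in control myotubes. Under *Tug1* KD it was 13.1 to 16.7 RPM (median 14.2), 7.49 to 21.4 RPM (median 14.0) and 9.28 to 18.7 RPM (median 14.4). The groups overlapped, and their spread was wider after EPS than at Rest, with an SD of 2.15 RPM in Rest control and 6.09 RPM in EPS 3h control myotubes. The sets lay apart, and the EPS 0h change in *Tug1* KD myotubes was 0.36 in set A and -0.50 in set B, and the latter passed alone (FDR = 0.0457). Over all 6 replicates its 95% interval was -0.43 to 0.40, and in control myotubes it was -0.32 to 0.49 at EPS 0h and -0.22 to 0.60 at EPS 3h. Without replicate 3 of EPS 3h the change from Rest was 0.28 (FDR = 0.272) in control and 0.013 (FDR = 0.967) in *Tug1* KD myotubes.

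*Kdm3a* (ENSMUSG00000053470, chr6:71565956-71610472, minus strand), a histone H3 lysine 9 demethylase whose gene is raised by hypoxia, was higher than at Rest at both times in both LNAs. In control myotubes it ranged over 53.6 to 71.2 RPM (median 68.0) at Rest, 67.1 to 96.9 RPM (median 82.5) at EPS 0h and 75.3 to 115 RPM (median 91.3) at EPS 3h. The *Tug1* KD ranges were 49.98 to 63.0 RPM (median 54.6), 56.6 to 84.3 RPM (median 69.5) and 64.1 to 107 RPM (median 71.1). The EPS 3h and Rest groups of either LNA did not overlap, and 4 of 6 values at EPS 0h exceeded all Rest values in each. The change was 1.44-fold at EPS 3h in control (log2FC 0.53, SE 0.12, FDR = 0.000494) and 1.42-fold in *Tug1* KD myotubes (log2FC 0.51, SE 0.12, FDR = 0.000822). By set it was 0.50 in set A and 0.58 in set B in control and 0.72 in set A and 0.29 in set B in *Tug1* KD myotubes. At EPS 0h it was 0.34 (FDR = 0.0269) in control and 0.32 (FDR = 0.0352) in *Tug1* KD myotubes. By set the EPS 0h value was 0.44 in set A and 0.21 in set B (FDR = 0.145) in control, and 0.53 in set A and 0.093 in set B (FDR = 0.575) in *Tug1* KD myotubes, so set B alone passed in neither. Neither pooled EPS 0h value passed with scaling by library size alone (FDR = 0.0981 and 0.134). Without replicate 3 of EPS 3h the change at that time was 0.58 (FDR = 0.000208) in control and 0.55 (FDR = 0.000467) in *Tug1* KD myotubes. The step from EPS 0h to EPS 3h did not pass in either (log2FC 0.19, FDR = 0.359, and 0.19, FDR = 0.356).

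*Ankrd37* (ENSMUSG00000050914, chr8:46449939-46458744, minus strand), an ankyrin repeat gene often used as a hypoxia marker, gave 5 to 31 counts per library and was not tested with the other genes. It ranged over 0.575 to 1.36 RPM (median 0.847) at Rest, 0.509 to 0.866 RPM (median 0.684) at EPS 0h and 0.284 to 0.784 RPM (median 0.547) at EPS 3h in control myotubes. Under *Tug1* KD it ranged over 0.670 to 1.60 RPM (median 1.02), 0.389 to 0.689 RPM (median 0.481) and 0.391 to 1.02 RPM (median 0.747). The means were lower after EPS than at Rest in both. In a fit to all genes without a low-count filter the change from Rest was -0.42 (FDR = 0.389) at EPS 0h and -0.82 (FDR = 0.0298) at EPS 3h in control myotubes. Under *Tug1* KD the change was -1.15 (FDR = 0.00272) and -0.65 (FDR = 0.0729). Of its exon bases, 61.7% are shared with exons of *Ufsp2* on the opposite strand, a gene that reached 37.2 RPM. Since the strand setting of the counting is not given in the sources used here, reads of the 2 genes may not have been told apart.

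**Figure D2:**
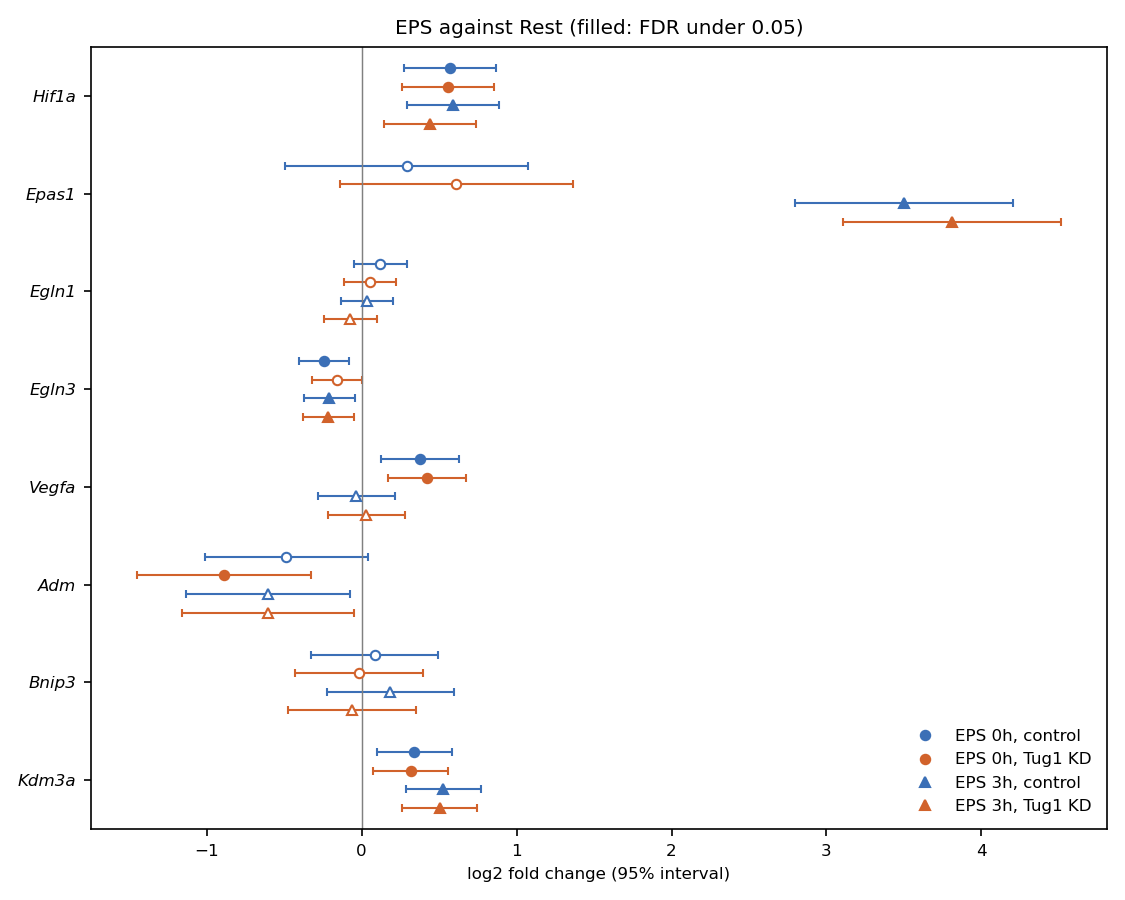
Log2 fold change of the 8 tested genes from Rest to EPS 0h (circles) and EPS 3h (triangles), with approximate 95% intervals, in control (blue) and *Tug1* KD (orange) myotubes of 6 libraries per group, and filled symbols at an FDR under 0.05. *Epas1* at EPS 3h stands at 3.50 and 3.81, and the remaining values lie between -0.89 and 0.61.

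Of the 8 genes, 1 was called between *Tug1* KD and control myotubes, in all 3 conditions: *Egln3* was higher under *Tug1* KD. All *Tug1* KD cultures received 1 LNA sequence, so the loss of *Tug1* and other effects of that sequence cannot be told apart. At Rest *Egln3* ranged over 76.6 to 82.6 RPM in control and 98.2 to 112 RPM under *Tug1* KD. At EPS 0h it ranged over 53.6 to 77.8 and 81.9 to 103 RPM, and at EPS 3h over 66.9 to 71.9 and 74.9 to 109 RPM. In no condition did a *Tug1* KD library overlap a control library. The difference was 105 ± 4.76 RPM against 79.3 ± 2.17 RPM at Rest (log2FC 0.40, SE 0.084, FDR = 0.00105). It was 93.8 ± 9.49 RPM against 67.1 ± 10.1 RPM at EPS 0h (log2FC 0.48, SE 0.084, FDR = 7.87e-05) and 90.3 ± 11.5 RPM against 68.7 ± 1.73 RPM at EPS 3h (log2FC 0.39, SE 0.084, FDR = 0.00127, SD and n = 6 per group). By set it was 0.46 in set A and 0.34 in set B at Rest, 0.34 in set A and 0.67 in set B at EPS 0h and 0.29 in set A and 0.50 in set B at EPS 3h, where set A alone did not pass (FDR = 0.0864). *Egln3* was called in 1 of 8 tests per condition, beside a background of 5.54% of all genes called higher and 4.47% lower at Rest, 8.25% and 6.07% at EPS 0h, then 6.38% and 5.11% at EPS 3h. The median log2FC of the 8 genes was 0.063, 0.052 and -0.016, beside -0.027, -0.0025 and -0.012 over all genes. The level of *Egln3* in *Tug1* KD myotubes at EPS 3h (90.3 ± 11.5 RPM) was above that of control myotubes at Rest (79.3 ± 2.17 RPM) on average, with overlapping libraries.

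The other 7 genes did not pass the test between *Tug1* KD and control myotubes in any condition. For *Hif1a* the log2FC and its 95% interval were 0.12 (-0.18 to 0.42) at Rest, 0.10 (-0.19 to 0.40) at EPS 0h and -0.029 (-0.33 to 0.27) at EPS 3h. Those of *Vegfa* were 0.021 (-0.23 to 0.27) at Rest, 0.066 (-0.18 to 0.32) at EPS 0h and 0.086 (-0.16 to 0.34) at EPS 3h. *Epas1* had wider intervals, 0.13 (-0.66 to 0.92) at Rest, 0.45 (-0.30 to 1.19) at EPS 0h and 0.44 (-0.14 to 1.02) at EPS 3h, with 2 to 34 counts per library at Rest and EPS 0h. *Kdm3a* was -0.23, -0.25 and -0.25 (FDR = 0.290, 0.179 and 0.204), with 2, 3 and 4 of 6 *Tug1* KD libraries below every control library. The EPS 3h value passed with the replicate number as a block (-0.27, FDR = 0.0462) and in set B alone (-0.39, FDR = 0.0217). *Adm* at EPS 0h was -0.74 (FDR = 0.0822), and it passed with the block (-0.73, FDR = 0.0385) and in set B alone (-1.13, FDR = 0.0276). *Bnip3* was -0.096, -0.20 and -0.34, and *Egln1* 0.10, 0.037 and -0.0035.

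**Figure D3:**
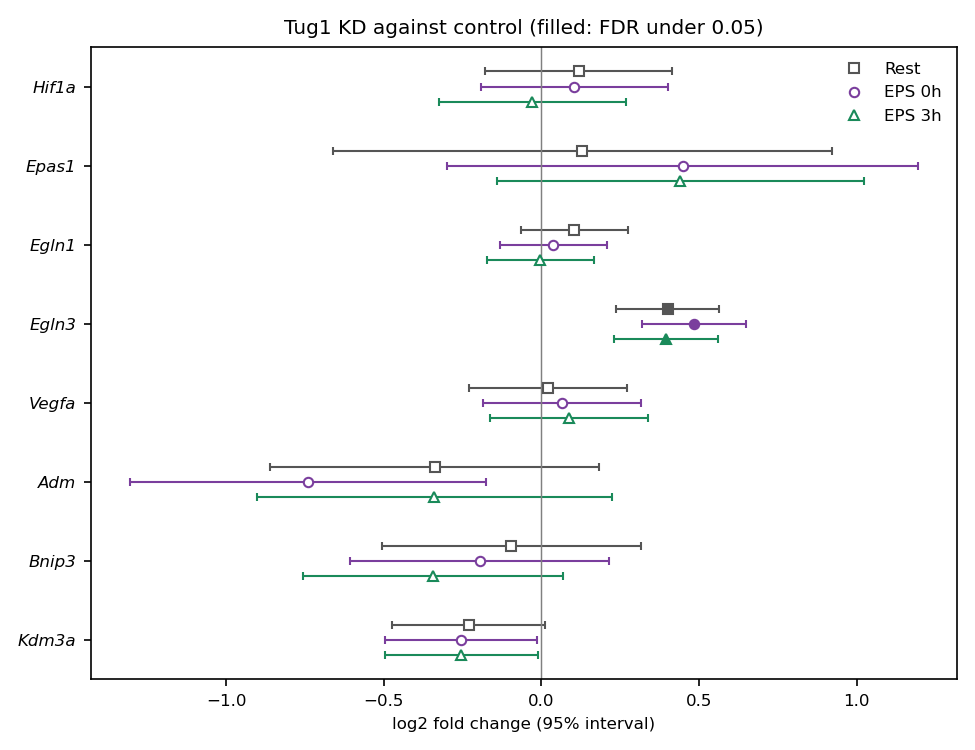
Log2 fold change of the 8 tested genes in *Tug1* KD against control myotubes at Rest (squares), EPS 0h (circles) and EPS 3h (triangles), with approximate 95% intervals from 6 libraries per group, and filled symbols at an FDR under 0.05. *Egln3* is the 1 gene with filled symbols, at 0.40, 0.48 and 0.39, while *Kdm3a* and *Bnip3* lie below 0 in all 3 conditions without passing.

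Whether *Tug1* KD altered the response to EPS was tested as an interaction. Of the 8 genes, 0 passed in edgeR's quasi-likelihood test at either time, with 0 at an unadjusted p under 0.05 as well and 0 in DESeq2 or limma-voom. Over all genes tested the interaction called 0% at EPS 0h and 0.00715% (1 gene) at EPS 3h. The interval of the interaction at EPS 3h was -0.57 to 0.27 for *Hif1a*, -0.68 to 1.30 for *Epas1*, -0.24 to 0.23 for *Egln3* and -0.37 to 0.32 for *Kdm3a* on the log2 scale. *Adm*, called at EPS 0h in *Tug1* KD and not in control myotubes, had an interaction of -0.40 (-1.17 to 0.37), so the 2 responses were not shown to differ.

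Within the groups some of these genes varied together from well to well. After the mean of each group was removed, the log2 levels of *Hif1a* and *Kdm3a* had a Pearson correlation of 0.78 over the 36 libraries, *Hif1a* and *Bnip3* 0.76 and *Bnip3* and *Kdm3a* 0.67. *Hif1a* and *Vegfa* had 0.10 and *Epas1* and *Egln1* -0.65. The first 3 values were picked as the highest among the pairs of tested members. Genes outside the members lay closer to *Hif1a* in the same measure, such as *Suz12* (0.944) and *Pank3* (0.940). The libraries share the same 2 sets of replicates for every gene, with EPS 3h replicate 3 apart from replicates 1 and 2, and the values are a description. The sets differed the same way for these genes in some groups only. In EPS 0h control myotubes the means of sets A and B were 170.2 and 126 RPM for *Hif1a*, 94.0 and 69.8 RPM for *Kdm3a* and 20.0 and 12.9 RPM for *Bnip3*. At Rest in control myotubes they were, in the same order, 97.9 and 101.3, 69.2 and 60.2, and 16.3 and 14.7 RPM. At Rest under *Tug1* KD they were 96.5 and 119.6, 54.0 and 56.3, and 14.6 and 14.3 RPM. In EPS 3h, replicate 3 was the lowest control library for *Hif1a*, *Kdm3a* and *Bnip3*, at 86.9, 75.3 and 11.6 RPM.

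**Figure D4:**
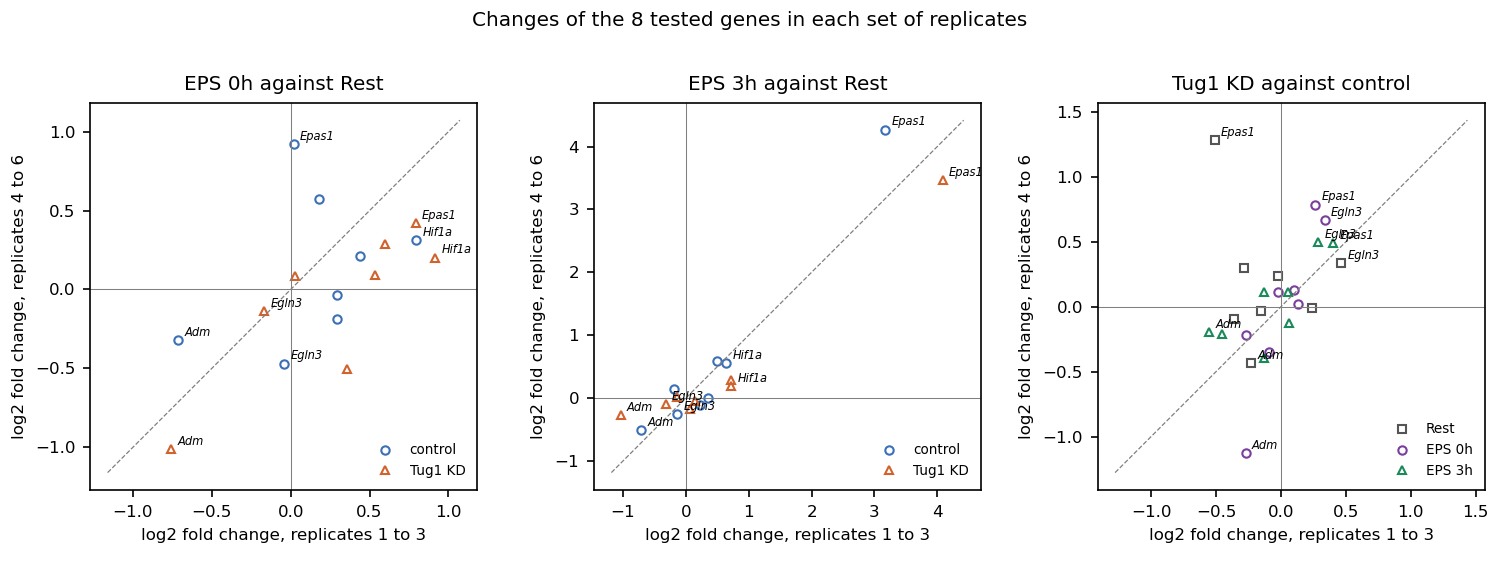
Log2 fold change of the 8 tested genes in replicates 4 to 6 against that in replicates 1 to 3, for EPS 0h and EPS 3h against Rest (control as circles, *Tug1* KD as triangles) and for *Tug1* KD against control (by condition), with a dashed line of equal change. *Hif1a* at EPS 0h lies below the line in both LNAs, at 0.79 and 0.31 in control myotubes, *Epas1* at EPS 3h is high in both sets, and *Egln3* under *Tug1* KD lies above 0 in both sets in all 3 conditions.

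The 9 genes were set beside 64 other genes of the HIF pathway and its known targets, of which 60 were tested. *Hif3a*, *Cox4i2*, *Ndufa4l2* and *Car12* were below the filter. In control myotubes 9 of the 60 were higher and 10 lower at EPS 0h (median log2FC -0.041). At EPS 3h, 13 were higher and 14 lower (median -0.0026). These are shares of 15.0% and 16.7% at EPS 0h, then 21.7% and 23.3% at EPS 3h, each below that of all genes. The counts by role were small, no difference between roles was tested, and over all genes 20.5% were called higher and 18.4% lower at EPS 0h, then 26.1% and 25.9% at EPS 3h. Counting the 9 genes too, the secreted and vascular targets gave 4 higher and 1 lower of 12 at EPS 0h and 4 higher and 3 lower of 12 at EPS 3h. The matrix, acid-base, iron and stress targets gave 3 higher and 1 lower of 10 and 4 higher and 1 lower of 10. Glucose uptake and glycolysis targets gave 0 higher and 5 lower of 19 and 1 higher and 5 lower of 19. The oxygen-sensing genes gave 0 higher and 2 lower of 9 and 0 higher and 3 lower of 9. The chromatin and transcription targets gave 2 higher and 1 lower of 5 and 2 higher and 3 lower of 5. The mitochondrial and cell death targets gave 0 higher and 0 lower of 6 and 2 higher and 0 lower of 6, and the coactivators with *Cited2* 2 higher and 1 lower of 3 and 1 higher and 0 lower of 3. Of the 4 tested subunit genes, 1 was higher at EPS 0h (*Hif1a*) and 2 at EPS 3h (*Hif1a* and *Epas1*), and the partner gene *Arnt* did not pass (-0.086 and -0.092).

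Among the other pathway genes with the largest rises was *Edn1*, which encodes the vasoconstrictor endothelin-1 and went from 4.38 ± 1.60 to 36.7 ± 7.11 RPM at EPS 0h (SD, n = 6, log2FC 3.07, SE 0.25, FDR = 1.45e-11) and to 47.6 ± 14.3 RPM at EPS 3h. *Pgf*, a growth factor of the VEGF family, went from 34.7 ± 6.03 to 91.8 ± 22.8 RPM (log2FC 1.40, SE 0.15, FDR = 2.45e-09). *P4ha1*, a collagen prolyl hydroxylase subunit, went from 305 ± 30.8 to 711 ± 82.4 RPM (log2FC 1.22, SE 0.094, FDR = 2.89e-12). Both stayed up at EPS 3h (log2FC 1.34 and 1.47). None of the 3 overlapped between EPS and Rest libraries, but they were named for their large rises in these comparisons, so this adds no support. Among the same pathway genes the largest falls were those of *Slc2a1*, *Slc16a3* and *Cxcr4*. *Slc2a1*, the glucose transporter GLUT1, went from 107 ± 15.0 to 56.9 ± 9.08 RPM at EPS 0h (log2FC -0.91, SE 0.12, FDR = 3.60e-07). *Slc16a3*, the lactate exporter MCT4, went from 20.2 ± 5.29 to 11.2 ± 2.37 RPM (log2FC -0.86, SE 0.22, FDR = 0.00182). *Cxcr4*, a chemokine receptor, went from 40.2 ± 2.20 to 23.2 ± 4.24 RPM (log2FC -0.80, SE 0.12, FDR = 2.18e-06). At EPS 3h these 3 stood at -1.21, -1.09 and -1.57 relative to Rest. Under *Tug1* KD at EPS 0h they were -0.96, -1.25 and -0.77. The EPS comparisons at both times share the Rest libraries.

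**Figure D5:**
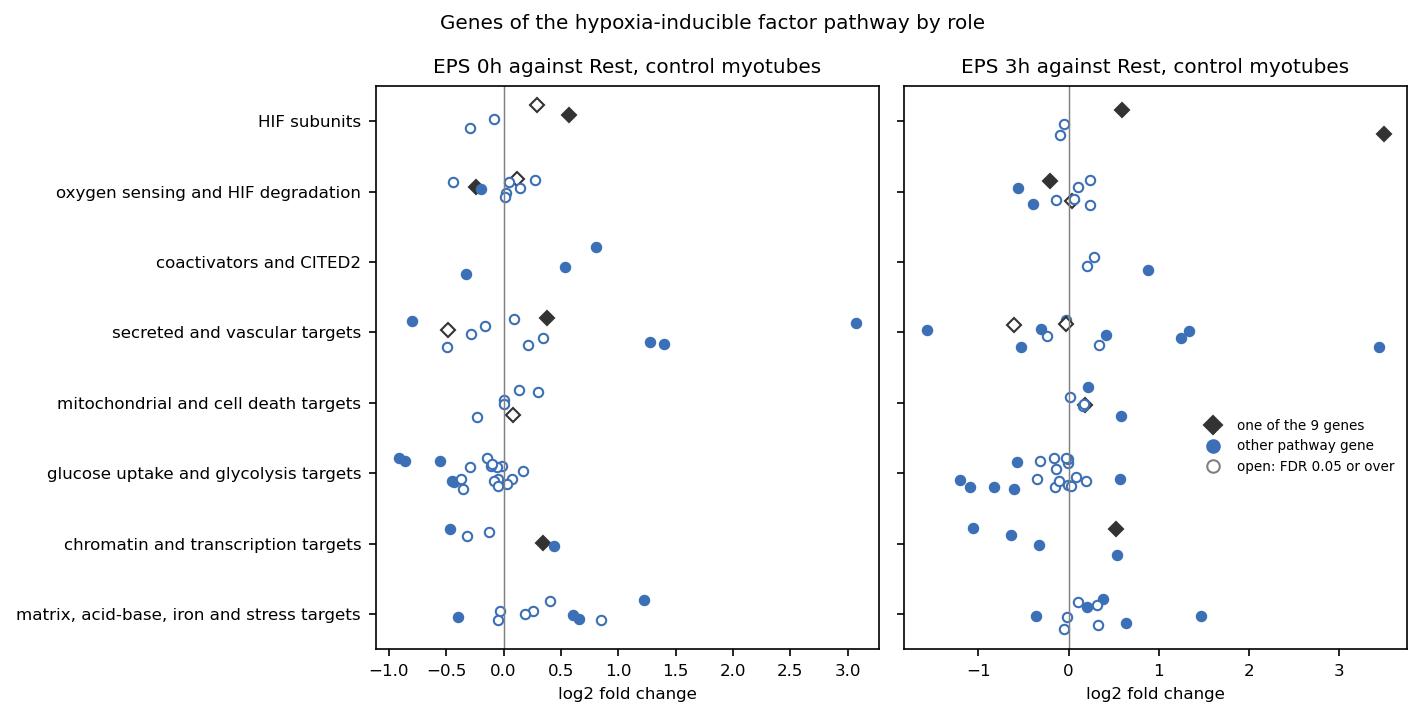
Log2 fold change of the 68 tested HIF pathway genes in control myotubes, from Rest to EPS 0h and to EPS 3h, grouped by role, with the members of the 9 as diamonds, the other genes as circles, and open symbols at an FDR of 0.05 or over (vertical scatter within a role has no meaning). At EPS 3h the points farthest to the right are *Epas1* (3.50) and *Edn1* (3.45), and the glycolysis row holds 5 of 19 genes called lower and 1 called higher.

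Between *Tug1* KD and control myotubes 2 of the 60 were higher and 1 lower at Rest, with 3 higher and 6 lower at EPS 0h and the same numbers at EPS 3h. Over all genes 5.54% were higher and 4.47% lower at Rest, then 8.25% and 6.07%, and then 6.38% and 5.11%. With the 9 genes counted and the replicate number as a block, 23 of 68 passed at EPS 0h and 16 at EPS 3h, against 10 and 10 without it. With the same block 24.3% of all genes tested passed at EPS 0h and 20.6% at EPS 3h. *Cul2*, the scaffold of the VHL ubiquitin ligase, was higher with *Egln3* in all 3 conditions, from 27.5 ± 2.15 to 42.4 ± 3.54 RPM at Rest (log2FC 0.63, SE 0.13, FDR = 0.000665), and at 0.60 and 0.40 at EPS 0h and EPS 3h. *Vhl* itself, outside the rule for named genes and chosen after its values were seen, was lower at EPS 0h (-0.37, FDR = 0.00133) and EPS 3h (-0.31, FDR = 0.0102). At Rest *Bnip3l*, a mitophagy receptor related to *Bnip3*, was also higher (log2FC 0.33, SE 0.080, FDR = 0.00426). Its groups did not overlap, which its choice among the largest rises favours. *Arnt2*, a close relative of *Arnt*, was higher at EPS 0h (0.53, FDR = 0.00698) and EPS 3h (0.41, FDR = 0.0449). *Pfkfb4*, a regulator of glycolytic flux, was also higher (0.46 and 0.52, FDR = 0.0291 and 0.0200). The glycolytic enzyme gene *Tpi1* was lower in all 3 conditions (-0.41, -0.55 and -0.48, FDR = 0.0393, 0.00311 and 0.0130), with the value at Rest at -0.099 in set A and -0.72 in set B. *Ldha*, lactate dehydrogenase A, was lower at EPS 0h and EPS 3h (-0.48 and -0.44, FDR = 0.00826 and 0.0218). *Cited2*, which competes with HIF-1α for its coactivators, was lower at both EPS times (-0.41 and -0.33, FDR = 0.00181 and 0.0153). Among the 68, set A alone gave 2 calls for EPS 0h, 1 of them *Egln3* (FDR = 0.0383), and 3 for EPS 3h. Set B alone gave 6 for EPS 3h, against 10 for each EPS time over all replicates. Most of the calls named here for the EPS times thus did not pass within set A, which holds 3 libraries per group. In the interactions 0 of the 68 genes passed in edgeR's test, with 2 at EPS 0h and 4 at EPS 3h at an unadjusted p under 0.05.

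The genes whose levels followed each member most closely over the 36 libraries were found by Pearson correlation of log2 RPM, as a description of libraries that share condition and set. They were *Pank3* (0.96) and *Suz12* (0.96) for *Hif1a* and *Srgap1* (0.95) and *Esr1* (0.95) for *Epas1*. They were *Fblim1* (0.92) and *Mapre3* (0.92) for *Egln3*, *Cpeb1* (0.89) for *Vegfa* and *Ints6* (0.94) and *Dmtf1* (0.93) for *Kdm3a*. The mean of *Srgap1* in control myotubes was 11.8 RPM (Rest), 19.6 RPM (EPS 0h) and 105 RPM (EPS 3h, n = 6), and so shared the late rise of *Epas1*. *Ranbp1* (0.83) was among the closest to *Bnip3*. They were, for *Adm*, *Fam160b2* (0.76) and *Ube2o* (0.73) and for *Egln1* *Ftsj1* (0.76) and *Ap2a2* (0.75). No other member was among the 2 closest genes of any member.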

How the data were processed

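RNA-seq was made from poly-A RNA of 36 C2C12 myotube wells, and the deposited values are raw counts of reads per gene that the authors made after fastp 0.14.1 and FastQC 0.11.7, with alignment by STAR 2.5 to GRCm39 per the submitters' processing notes. The counting program and its strand setting are not given in the sources used here. Genes below 1 RPM in more than 24 of 36 libraries were dropped (13995 of 55416 were kept). The 1492 genes without a name held 0.0327% of the counts. Exon lengths (all annotated exons of a gene joined), transcript starts and overlaps were taken from GENCODE M39. That annotation holds genes absent from the count table, so the exons counted may differ from those used for RPKM and overlaps. Counts were scaled with TMM and tested in edgeR 4.0.16 (R 4.3.3) by the quasi-likelihood test over all 6 groups with Benjamini-Hochberg adjustment over all genes tested, and RPM use TMM library sizes. Intervals are log2FC ± 1.96 SE, where SE is log2FC over the root of F, and are approximate. The genes named are the 9 members, up to 3 other pathway genes with the largest rise and fall in each main comparison at a mean of at least 5 RPM, the 2 genes most like each member (not all are reported here), and *Tug1*. The members and gene lists were chosen with earlier results of these data known. The main tests fitted group means without pairs or blocks. Same-numbered libraries deviated together (every pair's correlation over 0.1) in 6 of 9 comparisons, and there the replicate block, an alternative only, was read as a pairing. In 5 of the 6 the lowest correlation within a set was 0.034 or below, so there the pairing mostly follows the 2 sets. That replicates 1 to 3 and 4 to 6 are the experiments is not in the labels. No 2 libraries agreed within sampling noise. The code was tested on simulated counts. DESeq2 1.42.0, limma 3.58.1 (voom), other filters and scaling, blocks for replicate number or set, each set alone, and left-out libraries were tried as alternatives. The processed columns all belonged to mapped samples (0 unused).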

Additional observations from a re-analysis of the deposited data

Results flagged for a closer look

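In 2 of 54 groups of 6 libraries (9 genes by 6 groups), 1 library lay far from the others, a number that chance alone would about give, since such a test marks about 1 in 20 groups. *Epas1* in EPS 0h *Tug1* KD replicate 5 was 0.432 RPM, while the next lowest library was 1.15 RPM (gap over range 0.665). Leaving that library out changed no call of the 9 genes. *Bnip3* in Rest control replicate 6 was 11.2 RPM, while the next lowest was 15.5 RPM (gap over range 0.733). Without that library *Bnip3* still did not pass the test, and *Egln3* at EPS 3h against Rest in control myotubes was no longer called.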

How the results depend on the processing

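Over 88 gene values and 15 alternatives no direction of a called value reversed, and 54 calls of single genes changed. DESeq2 and limma-voom changed none of the 88. Of 330 counts under alternatives, 295 stayed within 1.5 times the reported count, and the other 35 follow, with the cause not tested.

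Of the members, 4 were called at EPS 0h against Rest in control myotubes, and 2 under library size alone, without a filter and in replicates 4 to 6. In *Tug1* KD myotubes the 4 called at EPS 0h and the 4 at EPS 3h were each 2 in replicates 4 to 6. The 2 called at EPS 3h against EPS 0h were 1 in replicates 1 to 3 in control myotubes and 1 in either set in *Tug1* KD myotubes, and 1 without EPS 3h replicate 3 of the same LNA. The 1 called between *Tug1* KD and control at EPS 0h became 2 with the replicate block, the set block and in replicates 4 to 6, and at EPS 3h 2 with the replicate block and in replicates 4 to 6, but 0 in set A (replicates 1 to 3).

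Of the 68 pathway genes, 9 were called at EPS 3h against EPS 0h in control myotubes, against 16 with the replicate block and 14 with the set block, and 9 in *Tug1* KD myotubes, against 18 and 14. Between *Tug1* KD and control at Rest 4 were called, and 7 in DESeq2, 15 with the replicate block, 13 with the set block, 11 in replicates 4 to 6 and 8 with only the groups compared. At EPS 0h 10 were called, and 6 without a filter, 23 with the replicate block, 21 with the set block and 2 in replicates 1 to 3. At EPS 3h 10 were called, and 4 without a filter, 16 with the replicate block, 16 with the set block, 3 and 6 in the first and last 3 replicates alone and 4 with only the groups compared.

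In 3 comparisons (EPS 3h against EPS 0h in control, EPS 3h against Rest in *Tug1* KD, and *Tug1* KD against control at Rest) same-numbered libraries did not all deviate together, so the replicate block there joins libraries that share only a number. The 4 left-out libraries were chosen after seeing the data. Depth limited *Adm*, *Epas1* before EPS 3h and *Ankrd37*. The level of 3 counts covers counting error only, while the intervals hold the spread between wells.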
